A study of Mus musculus with 38 samples.

Results

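The 10 genes described here are used as markers of macrophages in general, whatever their tissue: Csf1r, Cd14, Fcgr3, Tyrobp, Adgre1, Cd68, Lyz2, C1qa, C1qb and C1qc. They were found by their names on the arrays, where Adgre1 is listed under the older symbol Emr1 and Lyz2 under Lyzs. All 10 were measured, by 15 of the 41174 probes, and they make up 10 of 28786 genes. Every value below is a log2 ratio of the sample to a common reference RNA, the Universal mouse reference, so a step of 1 is a doubling. Where a gene had several probes, the brightest stood for it.

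Macrophages are phagocytes that live in every tissue and that tumors recruit from circulating monocytes. Their survival depends on the kinase receptor encoded by Csf1r, and signals through it, through Fc receptors and through Toll-like receptors set how they divide, engulf and secrete. In mammary tumors of MMTV-PyMT mice and in their lung metastases they are among the most common leukocytes. The lung also has a resident population in its air spaces, the alveolar macrophages. Several of the 10 genes are active in other myeloid cells too: monocytes and neutrophils make Lyz2, Fcgr3, Tyrobp and Cd14.

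The samples came from the MMTV-PyMT hyperplasia transplant model. Hyperplasias of female MMTV-PyMT;actin-GFP mice were grafted into cleared mammary fat pads of wild-type FVB/n hosts, and GFP-positive cells of the outgrowths or of the lungs were sorted. The MMTV promoter drives the polyoma middle T antigen mainly in mammary epithelium, whereas the actin promoter drives GFP in all cells of the donor. GFP alone thus does not tell tumor cells from other grafted cells, and which cells the gate held was not tested. The progression experiment had 5 adenomas (5-week outgrowths), 6 carcinomas (18-week outgrowths), 6 samples of disseminated cells (sorted from pooled lungs of several mice with 18-week outgrowths) and 5 samples of metastases (lungs collected after removal of 18-week tumors). The chemotherapy experiment, begun 2 months after transplantation with docetaxel, doxorubicin and cyclophosphamide, had 6 untreated tumors, 6 residual tumors (labelled regressed, taken 10 days after the first dose) and 4 relapsed tumors (labelled resistant, taken 10 days after the fourth). Nothing in the labels ties arrays to single animals, so p-values measure the spread between these arrays.

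The probe of each gene was well above background in the sample channel on every array, except that of C1qa on 1 adenoma, and none was saturated. The share of all probes well above background ran from 48.4% to 78.9% on the progression arrays and from 50.5% to 64.3% on the chemotherapy arrays. Sorted cells of the primary tumors carried strong mammary epithelial signal: the mean log2 ratio of 12 epithelial markers (Krt8, Epcam, Cdh1 and others) was 3.49 to 4.11 in adenomas and 4.20 to 4.85 over all chemotherapy arrays. Carcinoma 6 stood apart before any comparison. Its epithelial mean of 2.82 was the lowest of the carcinomas, and each of the 10 macrophage genes was highest there among the 6 carcinomas. Metastases 4 had an epithelial mean of 0.88, against 3.70 to 4.82 in the other metastases. Counts or medians that rest on carcinoma 6 are also given without it, and some counts without metastases 4. Changes of single genes are given with both arrays.

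The upstream sequences of 5 of the 10 genes were at hand, from RefSeq on build GRCm38.p6, and 4 of them are shown because they belong to genes that moved very differently. Each run holds the 250 bases before the start of transcription, 5′ to 3′ on the strand of the gene. Capitals mark GAGGAA or its reverse complement TTCCTC, letters within the core that the myeloid factor Spi1 (PU.1) binds.
Lyz2 (largest rise; chr10:117282273-117282522, minus strand): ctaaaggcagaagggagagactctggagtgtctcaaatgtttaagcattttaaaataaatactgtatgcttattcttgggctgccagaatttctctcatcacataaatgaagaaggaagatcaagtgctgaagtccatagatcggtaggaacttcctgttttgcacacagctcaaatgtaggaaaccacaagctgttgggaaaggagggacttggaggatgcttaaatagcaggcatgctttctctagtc
Fcgr3 (large rise; chr1:171059404-171059653, minus strand): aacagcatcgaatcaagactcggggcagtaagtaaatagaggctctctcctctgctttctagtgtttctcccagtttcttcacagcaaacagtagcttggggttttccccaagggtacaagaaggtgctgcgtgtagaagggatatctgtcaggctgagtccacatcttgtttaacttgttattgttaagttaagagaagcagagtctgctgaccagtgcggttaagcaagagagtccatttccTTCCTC
C1qb (smaller change; chr4:136886201-136886450, minus strand): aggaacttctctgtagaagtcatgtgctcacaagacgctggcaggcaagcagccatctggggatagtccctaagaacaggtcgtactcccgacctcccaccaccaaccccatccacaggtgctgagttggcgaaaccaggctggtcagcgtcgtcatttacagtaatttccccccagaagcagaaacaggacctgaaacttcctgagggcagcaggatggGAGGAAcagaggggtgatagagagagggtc
C1qc (change not detected; chr4:136892915-136893164, minus strand): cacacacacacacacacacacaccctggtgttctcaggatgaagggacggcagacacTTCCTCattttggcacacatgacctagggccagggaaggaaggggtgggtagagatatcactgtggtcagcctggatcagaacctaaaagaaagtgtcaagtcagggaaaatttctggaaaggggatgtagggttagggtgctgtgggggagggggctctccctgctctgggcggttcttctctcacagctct

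Counted from the start of transcription, the letters began at base -6 in Fcgr3, at -30 in C1qb and at -193 in C1qc. The window of Lyz2, searched with 50 more bases after the start, did not hold them on either strand. Cd68, not printed, held them at -225 and at base 30. Of all 32851 windows of this length, 28.3% held them at least once, so their presence in 4 of 5 genes is a description of these letters only.

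In the progression experiment most of the macrophage genes were higher in disseminated cells than in adenomas and most carcinomas, and the arrays of metastases were split. C1qc did not follow. Levels in adenomas differed by gene, from a mean log2 ratio of -1.84 for Cd68 to 4.14 for C1qc. Against adenomas, 8 of 10 rose in disseminated cells (limma, adjusted p below 0.05 and at least a 2-fold change), where 4.64% of all genes rose. For 8 of 10 every sample of disseminated cells exceeded every adenoma, as it did for 4.23% of all genes. In metastases 7 of 10 rose against adenomas, where 6.08% of all genes rose. For 3 of 10 every sample of metastases exceeded every adenoma, as it did for 9.76% of all genes. The median change of the 10 genes was 3.79 in disseminated cells and 2.49 in metastases on the log2 scale, beside medians over all genes of -0.01 and 0.02. Carcinomas against adenomas gave no called gene among the 10, with 3.31% of all genes called in either direction. These comparisons share their control arrays. In bulk RNA, fewer cells of a type and less RNA per cell cannot be told apart.

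**Figure D1:**
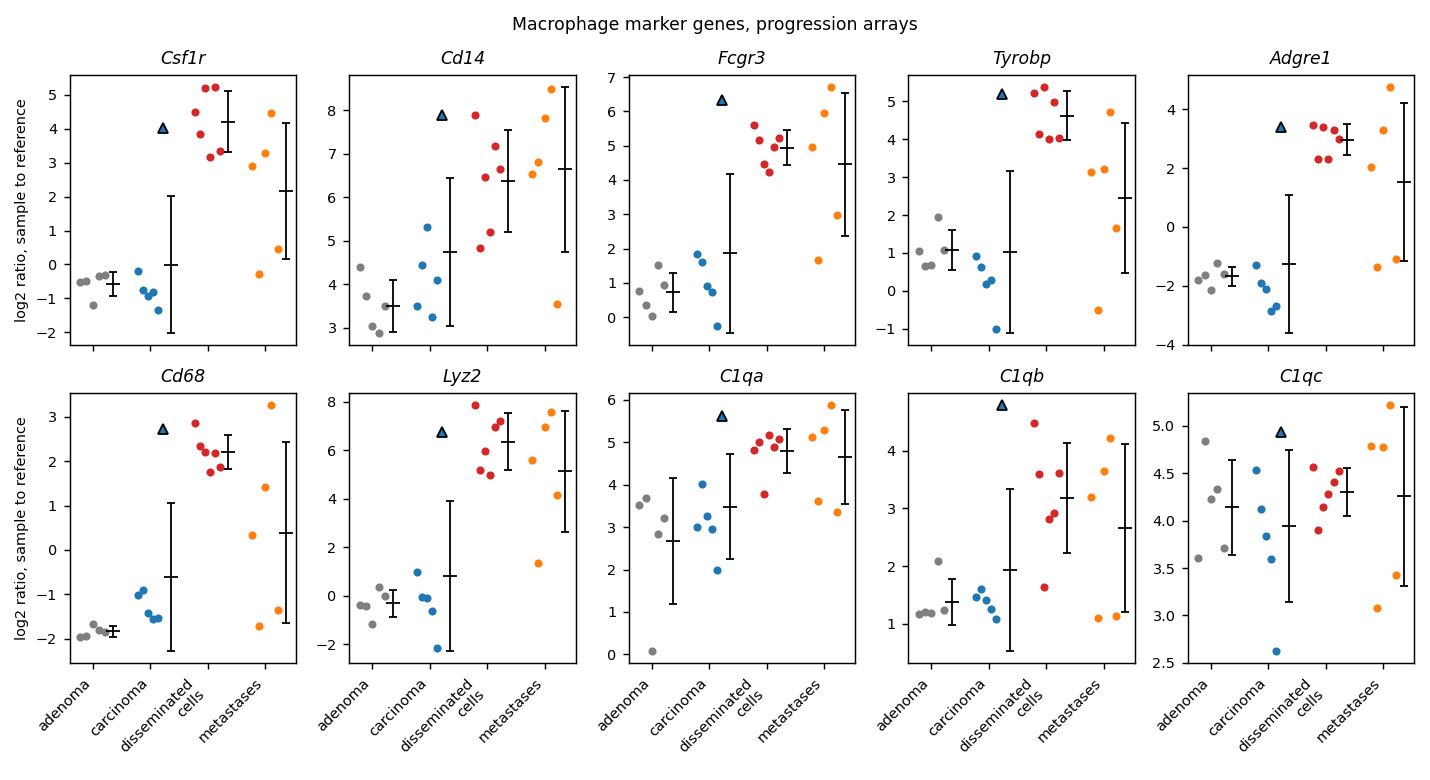
Log2 ratio of sample to reference (vertical axis, a separate scale in each panel) of the 10 macrophage genes on each progression array, by group, with the mean and SD of the group as a bar to its right; the outlined triangle is carcinoma 6. Disseminated cells lie above every adenoma for 8 genes, carcinoma 6 lies far above the other carcinomas for most genes, metastases are split, and the 4 groups of C1qc overlap.

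Csf1r, the receptor for the growth factors Csf1 and Il34, read -0.53, -0.49, -1.20, -0.35 and -0.30 in adenomas 1 to 5. Carcinomas ran from -1.33 through a median of -0.78 to 4.02, the last being carcinoma 6. Disseminated cells ran from 3.16 to 5.23 with a median of 4.17. All 6 samples of disseminated cells exceeded every adenoma and the other 5 carcinomas. In metastases 1 to 5 the values were 2.92, -0.27, 3.29, 4.47 and 0.46. Arrays 2 and 5 of this group lay near the adenomas and arrays 1, 3 and 4 near the disseminated cells. The log2 change against adenomas was 4.78 ± 0.87 (standard error, adjusted p = 0.00148 by limma) in disseminated cells, a 27.5-fold difference, and 2.75 ± 0.91 (adjusted p = 0.0286 by limma) in metastases.

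Fcgr3, a low-affinity Fc receptor that binds immune complexes, read 0.77, 0.35, 0.04, 1.52 and 0.94 in adenomas 1 to 5. In carcinomas it ran from -0.26 through a median of 1.26 to 6.34. Disseminated cells lay between 4.23 and 5.61, above every adenoma. Metastases 1 to 5 read 4.96, 1.67, 5.95, 6.72 and 2.98, and every one exceeded every adenoma. The gene rose 18.6-fold in disseminated cells against adenomas and 13.3-fold in metastases against adenomas, with log2 changes of 4.22 ± 0.93 and 3.73 ± 0.97 (standard errors). Against carcinomas, disseminated cells were higher by 3.08 ± 0.89 on the log2 scale (adjusted p = 0.0148 by limma).

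Tyrobp encodes DAP12, the adaptor that carries signals of receptors such as Trem2. Adenomas 1 to 5 read 1.06, 0.65, 0.68, 1.95 and 1.08, and carcinomas ran from -1.0 to 5.18 with a median of 0.46. Disseminated cells lay between 4.0 and 5.38, above every adenoma. Metastases 1 to 5 read 3.13, -0.51, 3.20, 4.73 and 1.66, overlapping the adenomas. It rose in disseminated cells against adenomas by 3.54 ± 0.88 (standard error, adjusted p = 0.00851 by limma) and against carcinomas by 3.58 ± 0.84 (adjusted p = 0.00408 by limma). In metastases against adenomas its change of 1.36 did not pass the test, with a 95% interval from -0.56 to 3.27.

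Cd14 is the co-receptor that hands lipopolysaccharide to Toll-like receptor 4. It was the gene of the 10 with its highest group mean in metastases. Adenomas 1 to 5 read 4.39, 3.73, 3.05, 2.89 and 3.50 and metastases 1 to 5 read 6.54, 6.80, 7.82, 8.50 and 3.55. Metastases 2, low for most of the other genes, was thus among the high arrays here. Disseminated cells ran from 4.83 to 7.90 with a median of 6.56, and carcinomas from 3.25 to 7.89 with a median of 4.27. The change against adenomas was 2.86 ± 0.83 in disseminated cells (adjusted p = 0.0197 by limma) and 3.13 ± 0.87 in metastases (adjusted p = 0.0107 by limma).

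Adgre1 encodes an adhesion receptor, the antigen by which mouse macrophages are commonly recognised. Adenomas 1 to 5 read -1.79, -1.65, -2.13, -1.23 and -1.61, and carcinomas ran from -2.87 through a median of -2.01 to 3.39. Disseminated cells lay between 2.31 and 3.48. The closeness of these 6 arrays contrasts with metastases 1 to 5, at 2.04, -1.36, 3.31, 4.77 and -1.08. Metastases 2 fell within the adenomas and metastases 5 just above them. Adgre1 was 25.1-fold higher in disseminated cells than in adenomas (log2 change 4.65 ± 1.04, adjusted p = 0.00488 by limma) and 9.31-fold higher in metastases (3.22 ± 1.09, adjusted p = 0.0318 by limma).

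Cd68, a glycoprotein of the lysosomal membrane, varied least among adenomas, at -1.95, -1.93, -1.66, -1.80 and -1.85. All 6 carcinomas exceeded all 5 adenomas, as they did for 5.96% of all genes and for no other macrophage gene. They ran from -1.55 through a median of -1.22 to 2.74. The last was carcinoma 6, and the next highest carcinoma read -0.91. The change of 1.22, which includes carcinoma 6, did not pass the test (adjusted p = 0.318 by limma). Disseminated cells lay between 1.76 and 2.86. In metastases 1 to 5 the gene read 0.35, -1.72, 1.42, 3.26 and -1.35, and array 4 exceeded every disseminated sample. The changes against adenomas were 4.04 ± 0.76 in disseminated cells and 2.23 ± 0.80 in metastases.

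Lyz2, the lysozyme secreted by macrophages and other myeloid cells, had the largest change of the 10 genes. It read -0.39, -0.41, -1.17, 0.35 and 0.00 in adenomas 1 to 5 and ran from -2.16 through a median of -0.07 to 6.76 in carcinomas. Disseminated cells ran from 4.98 to 7.85 with a median of 6.45. Metastases 1 to 5 read 5.61, 1.34, 6.95, 7.58 and 4.15, all above every adenoma. The rise against adenomas was 102-fold in disseminated cells (log2 change 6.68 ± 1.22, adjusted p = 0.00157 by limma) and 43.7-fold in metastases (5.45 ± 1.28, adjusted p = 0.00357 by limma). It was also the 1 gene called in metastases against carcinomas (4.32 ± 1.22, adjusted p = 0.016 by limma), where 4.73% of all genes rose. A second Lyz2 probe did not give these calls in metastases: it read 1.78 against adenomas (adjusted p = 0.0721 by limma) and 1.25 against carcinomas (adjusted p = 0.221 by limma). Its close copy Lyz1 moved with it, by 6.63 in disseminated cells against adenomas. Whether the probes of these lysozymes tell them apart was not tested.

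C1qa, C1qb and C1qc encode the chains of C1q, the recognition molecule of the classical complement pathway, and lie beside each other on chromosome 4. In disseminated cells against adenomas their changes were the smallest of the 10. C1qa read 3.52, 3.69, 0.08, 2.83 and 3.20 in adenomas 1 to 5, so array 3 alone was low. Disseminated cells ran from 3.79 to 5.18 with a median of 4.95, and metastases 1 to 5 read 5.12, 3.61, 5.28, 5.87 and 3.35. C1qa rose by 2.13 ± 0.65 in disseminated cells against adenomas (adjusted p = 0.025 by limma), but without adenoma 3 the change of 1.48 did not pass the test. It rose by 1.98 ± 0.68 in metastases against adenomas, and the change was 1.335 without adenoma 3. This call in metastases was lost in 8 of 25 alternative settings.

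C1qb read 1.17, 1.20, 1.19, 2.08 and 1.25 in adenomas 1 to 5. Disseminated cells ran from 1.65 to 4.48 with a median of 3.26, and 5 of 6 exceeded every adenoma. Its change of 1.80 ± 0.66 missed the threshold (adjusted p = 0.0596 by limma), with a 95% interval from 0.42 to 3.18. In metastases 1 to 5 it read 3.20, 1.10, 3.64, 4.22 and 1.13. Arrays 2 and 5 fell below every adenoma and the other 3 above.

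C1qc had the smallest change. Adenomas 1 to 5 read 3.61, 4.84, 4.22, 4.33 and 3.71, and metastases 1 to 5 read 4.79, 3.08, 4.78, 5.22 and 3.43. Carcinomas ran from 2.62 to 4.93 with a median of 3.98, and disseminated cells from 3.90 to 4.56 with a median of 4.35. All 4 groups overlapped. The change in disseminated cells against adenomas was 0.16, with a 95% interval from -0.65 to 0.97, and in metastases 0.12, from -0.73 to 0.96. The upper limits exclude a doubling, whereas the 8 called genes rose by 2.13 to 6.68 in disseminated cells. Within carcinomas and metastases C1qc still followed the other genes: carcinoma 6 was its highest carcinoma, and metastases 1, 3 and 4 were its highest metastases.

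**Figure D2:**
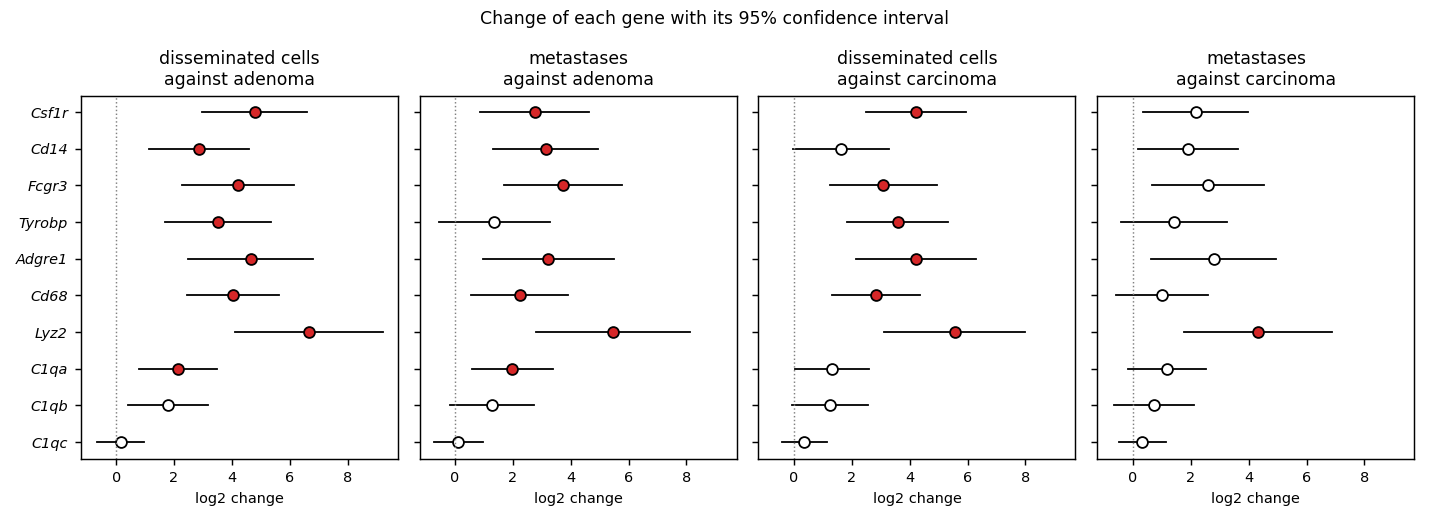
Log2 change of each gene (point) with its 95% confidence interval (line) in 4 comparisons, on 1 shared horizontal axis; filled points passed an adjusted p of 0.05 and a 2-fold change. Lyz2 has the largest change in every panel, and the interval of C1qc includes 0 in all 4.

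Against carcinomas, disseminated cells had higher levels of 6 of the 10 genes (Csf1r, Adgre1, Cd68, Lyz2, Fcgr3 and Tyrobp), where 5.48% of all genes rose, and the median change of the 10 was 2.95. The groups overlapped for every gene, and carcinoma 6 lay within or above the range of disseminated cells for each. Without that array 9 of the 10 were called, with a median of 3.74. Shares of all genes called were computed only with all arrays. Changes in counts when arrays are left out therefore cannot be told apart from changes over all genes. Metastases against carcinomas changed most with this array: 1 gene was called with it and 6 without it, and the median went from 1.65 to 2.38. The count also depended on metastases 2, 3 and 5, being 4, 0 and 5 without them in turn. Carcinomas against adenomas had a median of 0.69 with carcinoma 6 and -0.04 without it, and no gene reached an unadjusted p of 0.05. Nor was any called there without moderation of the variances.

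Metastases and disseminated cells did not differ by a called gene among the 10 (7.11% of all genes were called), although 9 of the 10 means were lower in metastases. The median change was -0.88, and 3 genes reached an unadjusted p of 0.05: Tyrobp (-2.18, 95% interval from -4.01 to -0.34), Csf1r (-2.04) and Cd68 (-1.81). Without moderation of the variances none was called either. The second Lyz2 probe, not used for the gene, was lower in metastases by both thresholds (-2.96, adjusted p = 0.00794 by limma). Without metastases 4, limma called 2 genes lower in metastases. The group means over the 10 genes were, in order, those of adenomas (0.91 ± 0.35, SD, n = 5), carcinomas (1.59 ± 1.81, SD, n = 6), metastases (3.43 ± 1.78, SD, n = 5) and disseminated cells (4.40 ± 0.48, SD, n = 6), with no gene called between the first and the second or between the third and the fourth. Without carcinoma 6 the mean of carcinomas was 0.88 ± 0.53 (SD, n = 5), below that of adenomas.

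Metastases against adenomas rested on few arrays. The arrays 1, 3 and 4 had the highest values for 9 of the 10 genes, Cd14 being the exception. The mean over the 10 genes was 3.86, 4.57 and 5.53 on these arrays and 1.37 and 1.83 on arrays 2 and 5. Without metastases 1, 3 or 4, or without adenoma 3, 3 of 10 genes were called in place of 7. With carcinoma 6 and metastases 4 both left out, a setting chosen after the values were seen, 6 were called, and 9 in disseminated cells against adenomas.

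Arrays of adenomas and disseminated cells shared 3 slides, and so did carcinomas and metastases, whereas the slides of the first pair of groups were scanned on another day than those of the second. Within the 3 slides of the first pair the disseminated cells were higher for 10, 9 and 10 of the 10 genes, with medians of 3.94, 4.08 and 4.08. On 2 slides of the second pair the mean of metastases exceeded that of carcinomas for all 10 genes, with medians of 1.91 and 3.24. The slide that carries carcinoma 6, carcinoma 5 and metastases 2 gave 1 of 10 and a median of -1.49. For the remaining comparisons slide set and group cannot be told apart.

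The progression samples went through a second round of amplification that the chemotherapy samples did not, and probes of 1 gene did not all read the same change. Probe positions are those of build mm7 in the array files. For Csf1r on chromosome 18 the probe used for the gene read a change of 4.78 in disseminated cells against adenomas. A probe 0.835 kb upstream of it read 2.77, and a probe 21 kb upstream read 0.27 (adjusted p = 0.532 by limma). For Adgre1 the probe at chr17:55686649-55686708 read 4.65 and the probe 72.9 kb upstream read 0.90. The second Lyz2 probe, 4.72 kb upstream of the one at chr10:116785279-116785338, read 4.74 against 6.68. These additional probes were not above background everywhere: on adenomas, that of Adgre1 was well above background on 1 of 5 arrays, that of Lyz2 on 3, and those of Fcgr3 and of Csf1r at 21 kb on 4. The probes of Fcgr3, 2.47 kb apart, gave 4.13 and 4.22. Which exons these probes lie in was not determined here, and the part of amplification or of transcript structure in these differences was not tested. With the mean of a gene's probes in place of the brightest, 8 of 10 genes were still called in disseminated cells against adenomas and the median was 2.82. In metastases against adenomas none of the additional probes was called. Those of Csf1r read 1.53 (adjusted p = 0.0845 by limma) and -0.17, that of Adgre1 0.29, that of Lyz2 1.78 and that of Fcgr3 2.39 (adjusted p = 0.0721 by limma). With the mean of the probes 5 of 10 genes were called there in place of 7.

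**Figure D3:**
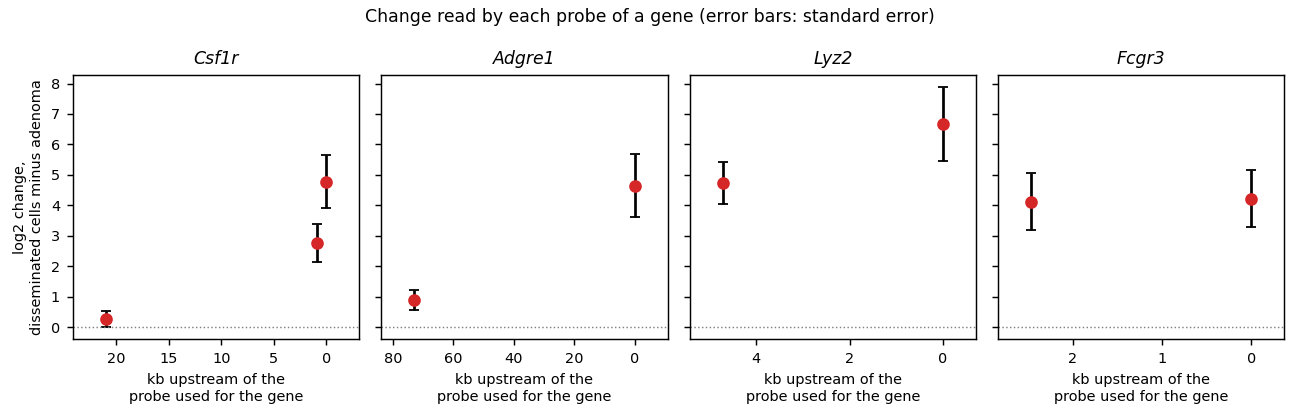
Log2 change in disseminated cells against adenomas (vertical axis, error bars are standard errors) read by each probe of the 4 genes with several probes, against its distance in kb upstream of the probe used for the gene (horizontal axis). For Csf1r and Adgre1 the farthest probe reads 0.27 and 0.90, for Fcgr3 both probes read about the same.

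The genes around these receptors were followed with lists that do not contain the 10. Of 18 genes of Fc receptor and Tyrobp-type signaling, 16 rose and none fell in disseminated cells against adenomas, where 4.64% of all genes rose, with a list median of 3.62. They include Fcer1g, the common Fc receptor chain (5.84), the receptor Trem1 (4.51), the inhibitory receptor Pirb (4.43) and Clec5a (4.63), which pairs with DAP12. In metastases 8 of the 18 rose, where 6.08% of all genes rose. Of 14 lysosomal and scavenger genes 11 rose in disseminated cells. In metastases 10 rose and 1 fell, where 8.51% of all genes fell. Among the rises in disseminated cells and metastases were the mannose receptor Mrc1 (4.86 and 3.59) and the fatty acid transporter Cd36 (5.17 and 3.23).

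Of 15 Csf1r ligands, myeloid transcription factors and related genes, 5 rose in disseminated cells and 1 in metastases, with list medians of 0.69 and 0.24. Of all genes 4.64% rose and 5.85% fell in disseminated cells against adenomas, and 6.08% rose in metastases. The 1 of 15 in metastases and the single falls given below lie near these shares. Spi1, the factor PU.1, rose by 2.25 and Cebpb by 1.93 in disseminated cells. Of 13 genes of lipopolysaccharide sensing around Cd14, 4 rose and 1 fell, among the rises Tlr1 (4.35), Tlr6 (2.57), Cd180 (2.09) and Irak3 (2.24). Of 13 complement partners of C1q, 5 rose and 1 fell, among the rises the receptor Cd93 (4.33), properdin (Cfp, 3.35) and the receptor C3ar1 (2.65). Of 4 relatives of Adgre1, 2 rose: Adgre5 by 3.94, and Adgre4, which was not well above background in any adenoma. Of the genes named from these lists, Tlr1 was well above background on 1 of 5 adenoma arrays, Cd36, Mrc1, Spi1 and Cd180 on 2, and Clec5a, Trem1 and Pirb on 4.

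Markers of other cells moved between the same groups. All 9 alveolar macrophage genes rose in disseminated cells and 7 in metastases, where 4.64% and 6.08% of all genes rose. Among them were Chil3 (8.68 and 7.65) and Fabp4 (4.44 and 3.86). Their mean log2 ratio was -0.10 to 0.30 in adenomas, 0.54 to 1.67 in carcinomas, 3.15 to 4.75 in disseminated cells and 1.67 to 3.76 in metastases. Of 10 genes of interstitial and resident macrophages 7 rose in disseminated cells, with list means of 0.14 to 0.36 in adenomas and 1.35 to 3.0 in disseminated cells. Of 11 neutrophil genes 8 rose in disseminated cells, among them S100a9 (4.69) and Csf3r (4.27, well above background on 2 of 5 adenoma arrays), and their mean went from 1.19 to 1.61 in adenomas to 2.85 to 5.40 in disseminated cells. Of 9 monocyte genes 6 rose, with list means of -0.44 to -0.03 in adenomas and 1.51 to 3.81 in disseminated cells.

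Of 8 endothelial genes 6 rose in disseminated cells (mean 0.05 to 0.45 in adenomas and 1.28 to 3.01 in disseminated cells). Of 8 lung epithelial genes 4 rose and 1 fell (mean 0.92 to 1.66 and 2.04 to 3.17). Against the same 4.64% of all genes, of 10 dendritic cell genes 2 rose, of 6 B cell genes 1 rose, of 6 erythroid genes 2 rose, and of 10 T and NK cell genes 1 rose and 1 fell. Of 7 fibroblast genes 1 fell. Of 12 mammary epithelial genes none rose and 2 fell (Elf5 and Csn3), where 5.85% of all genes fell, and the list median was -1.51. In metastases against adenomas 2 fell, where 8.51% of all genes fell, with a list median of 0.08. In disseminated cells against carcinomas all 12 epithelial genes were lower and 4 of them fell, among them the keratins Krt8 (-3.21) and Krt18 (-3.20). There 9 of 11 neutrophil, 6 of 9 monocyte and 8 of 9 alveolar macrophage genes rose. Of all genes 6.11% fell and 5.48% rose in this comparison. The part of these cells in the rise of the 10 genes was not tested.

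**Figure D4:**
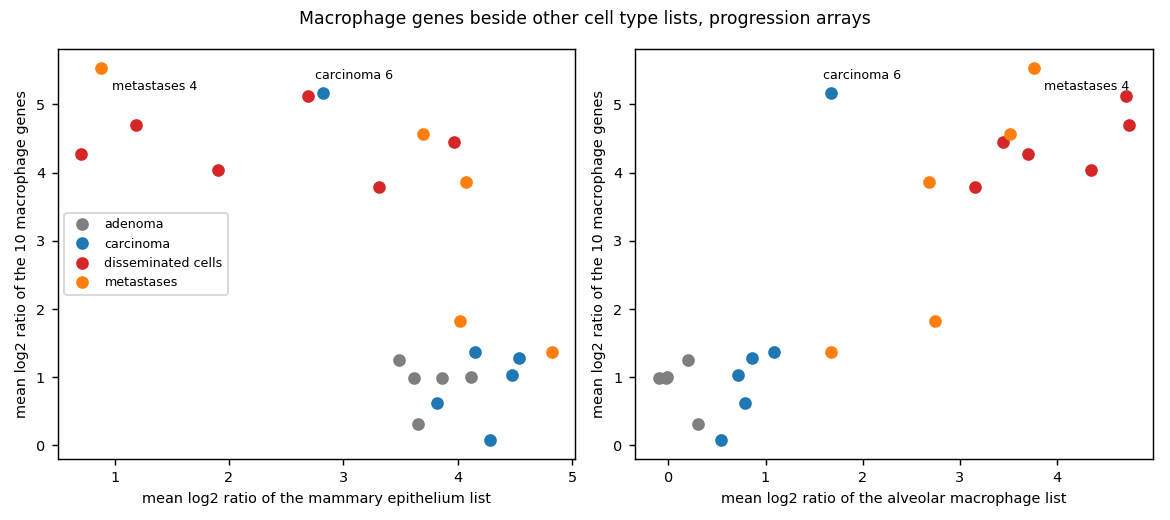
Mean log2 ratio of the 10 macrophage genes (vertical axis) on each progression array against the mean of the mammary epithelium list (left) and of the alveolar macrophage list (right), colored by group. Disseminated cells span epithelial means from 0.71 to 3.97 while their macrophage mean stays between 3.79 and 5.12, and carcinoma 6 is high for macrophage genes with an alveolar macrophage mean of 1.67.

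The mean of the macrophage genes was 3.79 to 5.12 in disseminated cells, while their epithelial mean ran from 0.71 to 3.97. The relation of the 2 signals was not tested. Disseminated cells 3 had the lowest epithelial mean (0.71) and a macrophage mean of 4.27, and disseminated cells 6 had the highest (3.97) and a macrophage mean of 4.45. Metastases 1 and 3 likewise held both signals, with epithelial means of 4.07 and 3.70. Metastases 4 and carcinoma 6 each had the lowest epithelial mean and the highest macrophage mean of their group. Carcinoma 6 had a macrophage mean of 5.17, above every disseminated sample, while metastases ran from 1.37 to 5.53. Its alveolar macrophage mean of 1.67 was the highest of the carcinomas. That value lay below every disseminated sample and about level with the lowest of the metastases, also 1.67. The neutrophil mean of carcinoma 6 was 3.41, against 1.37 to 1.84 in the other carcinomas.

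Over the 22 progression arrays, 8 other genes followed the mean profile of the 10 most closely among 15721 genes with a symbol and adequate signal, by the root mean square difference of centered log2 ratios. They were Cd207 (0.39), a lectin of Langerhans cells, Hk3 (0.42), a hexokinase of myeloid cells, Itgam (0.46), the integrin chain CD11b, Antxr2 (0.46), Parvg (0.47), Ifi209 (0.47), Adora2b (0.48) and Lgmn (0.49), a lysosomal protease. Of the 10 themselves, Cd68 (0.50) and Fcgr3 (0.57) lay nearest to their common profile, and C1qc (1.51) and Lyz2 (1.65) farthest. This measure also grows with the size of changes, and Lyz2 had the largest. Correlations of Lyz2 with the others ran from 0.59 (C1qc) to 0.98 (Fcgr3), and those of C1qc from 0.47 (Cd14) to 0.67 (C1qb).

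In the chemotherapy experiment no macrophage gene was called in any of 3 comparisons by limma, with or without moderation of the variances. Of all genes, 0.101% were called in residual against untreated tumors, 0.00347% in relapsed against untreated and 0.212% in relapsed against residual. No member reached an unadjusted p of 0.05 against untreated tumors, and 1, Cd14, did so in relapsed against residual tumors (-0.66, adjusted p = 0.603 by limma). The means leaned to lower values after treatment: 9 of 10 genes were lower in residual than in untreated tumors and all 10 in relapsed than in untreated tumors, with medians of -0.78 and -0.95 that share the untreated arrays. Untreated tumors varied most: the mean over the 10 genes had an SD of 1.26 (n = 6), larger than the size of either median. For residual tumors this SD was 0.90 (n = 6), above the size of their median of -0.78. The 4 relapsed tumors varied less, with an SD of 0.72, below the size of their median of -0.95.

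**Figure D5:**
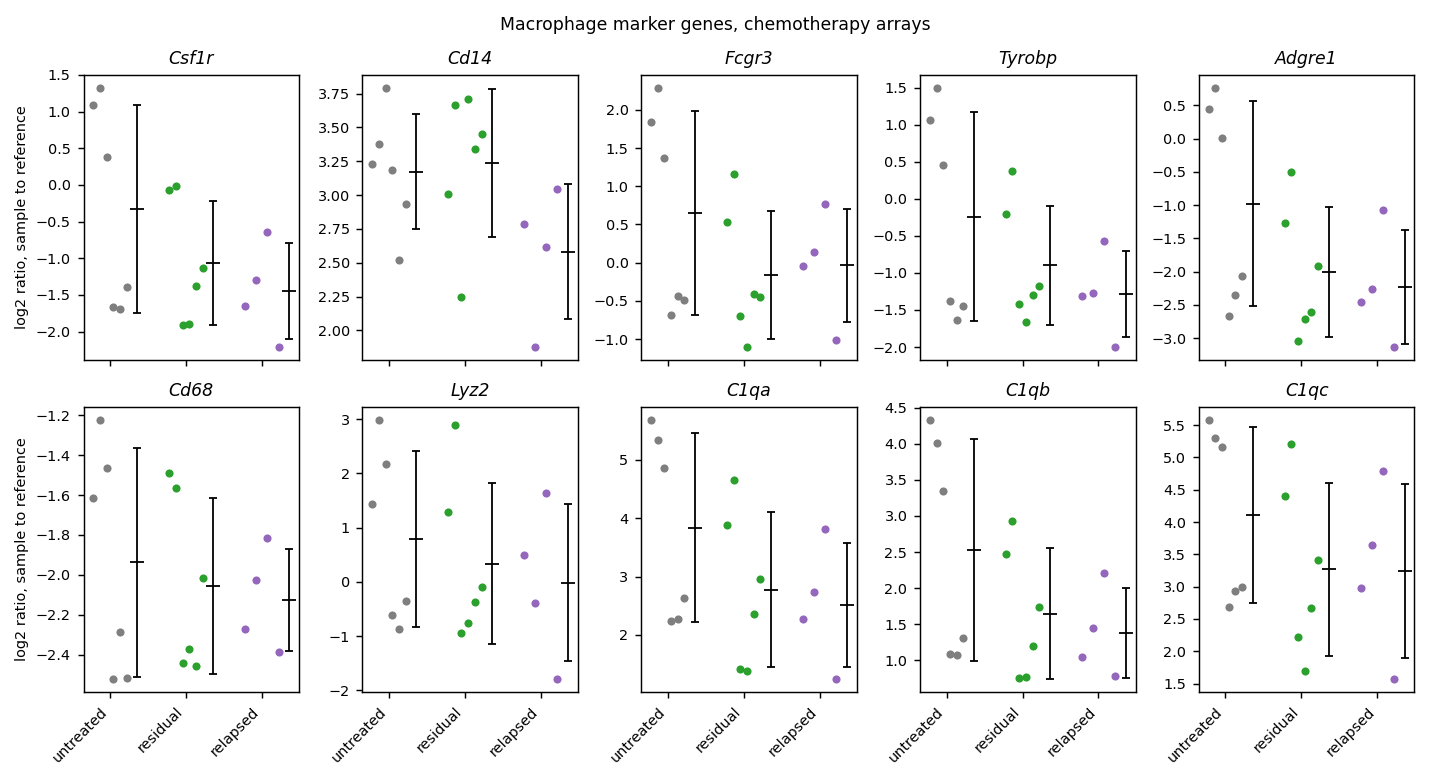
Log2 ratio of sample to reference (vertical axis, a separate scale in each panel) of the 10 macrophage genes on each chemotherapy array, in order of replicate number, with the mean and SD of each group as a bar to its right. Untreated 1 to 3 lie above untreated 4 to 6 in every panel, and the groups overlap for every gene.

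The tumors of 1 group differed from each other, and for nearly all genes in the same way. Untreated 1, 2 and 3 held the 3 highest untreated values for all 10 genes, residual 1 and 2 the highest residual values for 9 and relapsed 3 the highest relapsed value for 9, with Cd14 the exception in both. The mean over the 10 genes was 2.31, 2.57 and 2.01 in untreated 1 to 3, and -0.03, -0.05 and 0.16 in untreated 4 to 6. The epithelial means of these 6 arrays lay between 4.20 and 4.73. The arrays with high macrophage genes were the dimmer ones of each group. The median background-subtracted signal was 41.0 to 54.2 in untreated 1 to 3 and 72.6 to 96.8 in untreated 4 to 6. It was 37.0 and 32.5 in residual 1 and 2 and 68.4 to 99.3 in residual 3 to 6, and 37.4 in relapsed 3 against 60.2 to 93.5 in the other relapsed tumors. Residual 1 and 2 and relapsed 3 also had the lowest shares of probes well above background in their groups, from 50.5% to 51.2%. The part of signal in this split was not tested. Untreated 2 to 5 shared 1 slide, so this gap lay within a slide. Untreated 1 and residual 1 and 2 shared another slide, on which residual tumors were higher for 3 of 10 genes, with a median difference of -0.98. On the slide with untreated 6 and relapsed 3 and 4, relapsed tumors were higher for 6 of 10 genes, with a median of 0.18. On the slide with residual 6 and relapsed 1 and 2, relapsed tumors were higher than the residual tumor for 2 of 10, with a median of -0.24.

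C1qa ranged widely here, from 2.24 through a median of 3.75 to 5.69 in untreated tumors and from 1.39 through 2.66 to 4.66 in residual tumors. Relapsed 1 to 4 read 2.27, 2.74, 3.81 and 1.24. The reference channel of C1qa was well above background on 5 of 6 untreated, 5 of 6 residual and 2 of 4 relapsed arrays. The difference of residual from untreated tumors was -1.06, with a 95% interval from -2.61 to 0.49. C1qc ran from 2.68 to 5.58 in untreated and from 1.70 to 5.20 in residual tumors, and relapsed 1 to 4 read 2.98, 3.65, 4.79 and 1.57. Over all 16 arrays C1qc spanned 4.01, against 2.59 over the 22 progression arrays, while Cd68 spanned 1.30 and 5.21. The experiments were normalized separately, so only spans within each are given.

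Csf1r ran from -1.69 through a median of -0.51 to 1.33 in untreated tumors and from -1.91 through -1.26 to -0.02 in residual tumors, and relapsed 1 to 4 read -1.65, -1.30, -0.64 and -2.21. Its difference of residual from untreated tumors was -0.74, with an interval from -1.93 to 0.45. Adgre1 ran from -2.66 to 0.77 and from -3.04 to -0.50, and relapsed 1 to 4 read -2.46, -2.27, -1.07 and -3.13. The groups overlapped for both receptors. Cd14 was the narrowest apart from Cd68, from 2.52 to 3.80 in untreated and from 2.24 to 3.71 in residual tumors, with relapsed 1 to 4 at 2.78, 1.88, 2.62 and 3.04. Its interval in residual against untreated tumors, from -0.49 to 0.62, excludes a doubling in either direction, and so does that of Cd68, from -0.64 to 0.40.

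Lyz2 ran from -0.88 to 2.99 in untreated tumors and from -0.95 to 2.90 in residual tumors, and relapsed 1 to 4 read 0.49, -0.38, 1.63 and -1.79. Fcgr3 ran from -0.69 to 2.29 and from -1.10 to 1.16, Tyrobp from -1.64 to 1.5 and from -1.66 to 0.38, and C1qb from 1.07 to 4.33 and from 0.75 to 2.93. The intervals of these 4 genes in residual against untreated tumors reached from -2.16 to 1.24, so a fall of 2-fold lay within the interval of each and a rise of 2-fold within that of Lyz2. Over all 16 chemotherapy arrays the list of Fc receptor and Tyrobp-type signaling ran from -0.90 to 1.03, that of interstitial and resident macrophages from 0.26 to 1.71, that of dendritic cells from 0.06 to 1.11 and that of monocytes from -0.80 to 0.42. The first of these was highest in untreated 1 to 3, residual 1 and 2 and relapsed 3, the arrays with high macrophage genes. The alveolar macrophage list ran from 0.18 to 0.74 and the neutrophil list from 1.08 to 1.78.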

How the data were processed

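Two-colour Agilent arrays carried sample RNA in Cy5 and the reference in Cy3, with no dye swap, so dye bias of a probe was not measured. The authors deposited intensities from Agilent Feature Extraction 10.7 for each array and a matrix of log2 ratios made with limma, and their progression samples alone had 2 rounds of amplification. Of 45018 spots per array, 43379 were not controls. From the intensities, background was corrected by normexp (offset 50) and arrays were normalized by loess and then by quantiles within each experiment, with limma 3.58.1 in R 4.3.3. Probes were named by accession through a RefSeq table (22951 of 41174) or else by the array's own name (18223), and of several probes for 1 gene the brightest on average was used. One limma model over all groups of an experiment gave each comparison, with Benjamini-Hochberg adjustment over 28786 genes. Calls required both a 2-fold change and an adjusted p below 0.05. The genes most alike were the 8 with the smallest root mean square difference, and up to 4 genes per list were named by the size of their change among those called. The number of arrays (22 and 16) limits the precision. The 10 genes and all lists were chosen with earlier results of these data known. Alternatives covered background, normalization, filters, probe choice, slide, replicate number, test and leaving out each array. The fit was tested on simulated data.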

Additional observations from a re-analysis of the deposited data

Results flagged for a closer look

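Of 70 combinations of gene and group, 11 held 1 array whose gap to the nearest other array was large against the range of the group, where chance gives about 1 in 20 groups. The 10 genes share their arrays, so these combinations are not independent. In 7 of the 11 this was carcinoma 6, with log2 ratios of 2.74 for Cd68 (nearest other carcinoma -0.91), 3.39 for Adgre1 (-1.31), 5.18 for Tyrobp (0.93), 6.34 for Fcgr3 (1.83), 4.78 for C1qb (1.61), 4.02 for Csf1r (-0.20) and 6.76 for Lyz2 (0.99). Adenoma 3 was low for C1qa, at 0.078 with the nearest at 2.83, and for Csf1r, at -1.20 with the nearest at -0.53. Adenoma 4 was high for C1qb, at 2.08 with the nearest at 1.25. Disseminated cells 3 was low for C1qa, at 3.79 with the nearest at 4.81.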

How the results depend on the processing

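Among the tested changes of single macrophage genes, 542 values under other settings kept their call and 39 lost it with the same direction; of the counts of called genes 214 stayed within 1.5 times and 22 did not. The share of all genes called was not computed under the other settings. Disseminated cells against adenomas gave 6 to 10 called genes under every setting run, and against carcinomas 6 to 9. Metastases against carcinomas, with 1 called gene, gave 2 under each of these: no normexp offset, the processed signals of the scanner software, Aquantile, no normalization between arrays, the deposited ratios and slide as a random block. It gave 3 with dim probes left out, 0 with only the groups compared and 0 to 6 when leaving out each array. The settings chosen after seeing the data gave 8 (slide as a fixed block and carcinoma 6 left out) and 5 (carcinoma 6 and metastases 4 left out). Metastases against adenomas gave 4 called genes with only the groups compared and 3 to 7 when leaving out each array. Metastases against disseminated cells gave 0 to 2 when leaving out each array and 4, all lower, without carcinoma 6 and metastases 4. The median change in disseminated cells against adenomas was 2.82 with the mean of the probes. The median in carcinomas against adenomas ran from -0.039 to 0.97 over arrays left out, and was -0.039 without carcinoma 6, alone or together with metastases 4. The median in relapsed against residual tumors ran from -0.62 to 0.053, being 0.053 without residual 2 and 0.046 without relapsed 4. Apart from the arrays and samples left out, the cause was not tested. The replicate number as a block gave 3 called genes in metastases against carcinomas and 6 in disseminated cells against adenomas, where C1qa and Cd14 lost their calls. Deviations of samples with the same number had correlations from -0.41 to 0.42. Their median was -0.016 in the progression experiment (-0.009 for other pairs) and 0.038 in the chemotherapy experiment (0.008 for other pairs). These values cannot settle whether the numbers pair any samples. Slide as a fixed block gave no value where groups shared no slide.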
